A study of Leucocroton havanensis with 4 samples.

Results

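The contigs described here were nearly confined to the shoot of Leucocroton havanensis, a nickel-hyperaccumulating shrub of the Euphorbiaceae from Cuba, when the plantlets grew without nickel. A contig is an assembled transcript sequence, and its level is given in CPM, its reads per 1000000 reads counted in the library. Members had at least 50 CPM in shoot without nickel and a root level without nickel of at most 1/100 of that. The rule was met by 63 of 65936 contigs, which is 1.86% of the 3381 contigs at 50 CPM or more in that shoot library and 0.104% of the 60628 contigs that had 10 or more reads in some library. The libraries with nickel took no part in the choice, and the organ difference without nickel is therefore given as a description.

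The 4 groups were each sequenced as 1 library: shoot with nickel, shoot without nickel, root with nickel and root without nickel. All came from plantlets raised in vitro for 6 weeks from germination on Murashige & Skoog agar, with polyA RNA taken from material kept in RNAlater. The growth protocol, worded alike for all samples, gives 500 mg/L NiSO4, a dose read here as that of the nickel samples alone. The number of plantlets behind a library is not stated in the labels. The shoot library with nickel is labelled as a re-analysis of an earlier library, so in shoot the nickel treatment and the origin of the library cannot be told apart.

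Hyperaccumulating plants move metal from the root to the shoot, where much of it is stored in leaf cells. Shoots also hold photosynthetic tissue, and transcripts of the photosynthetic apparatus are among the most abundant in leaves of land plants generally. The files pair the contigs with no gene name, so no member is given a function, the organ labels could not be checked against known marker genes, and sequences were not used here.

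Counted reads numbered 98108920 (with nickel) and 84917997 (without) in shoot, and 55660570 (with nickel) and 59802565 (without) in root. With 1 library per group no difference has a replicate check, and no test was made. The 95% exact intervals cover counting error only, and they are too narrow to the extent that both reads of a pair were counted, since 55.5% to 61.6% of the counts from 1 to 20 were even numbers. In these whole-organ libraries, fewer cells of a type and less RNA per cell cannot be told apart. In organ ratios, and elsewhere only where stated, a library with no read was set at a floor of 3 reads. This floor was 0.0539 CPM in root with nickel and 0.0502 CPM in root without nickel.

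The members were few but abundant. Together they took 3.53% of the reads in shoot with nickel (95% exact binomial interval 3.527% to 3.534%) and 3.71% in shoot without nickel (3.702% to 3.710%). In root the same contigs took 0.00716% of the reads with nickel (0.00694% to 0.00739%) and 0.00646% without nickel (0.00625% to 0.00666%). Their summed level was thus 493-fold higher in shoot than in root with nickel, against 574-fold without nickel.

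Levels within the set were very uneven. In shoot with nickel they ran from 0.836 to 6506 CPM with a median of 134 CPM, and in shoot without nickel from 53.1 to 5725 CPM with a median of 177 CPM. A level of at least 1000 CPM was reached by 8 members with nickel and by 8 without nickel, of which 7 were shared. The 4 most abundant members took 50.5% of all member reads in shoot with nickel and 48.2% in shoot without nickel. The 10 highest members were the same contigs in both shoot libraries. Among the other 53 members the median shift was 6 ranks, and 14 shifted by more than 10 ranks. Across the 63 members, Spearman's rho between the shoot levels with and without nickel was 0.85, a description of contigs measured in the same pair of libraries.

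**Figure D1:**
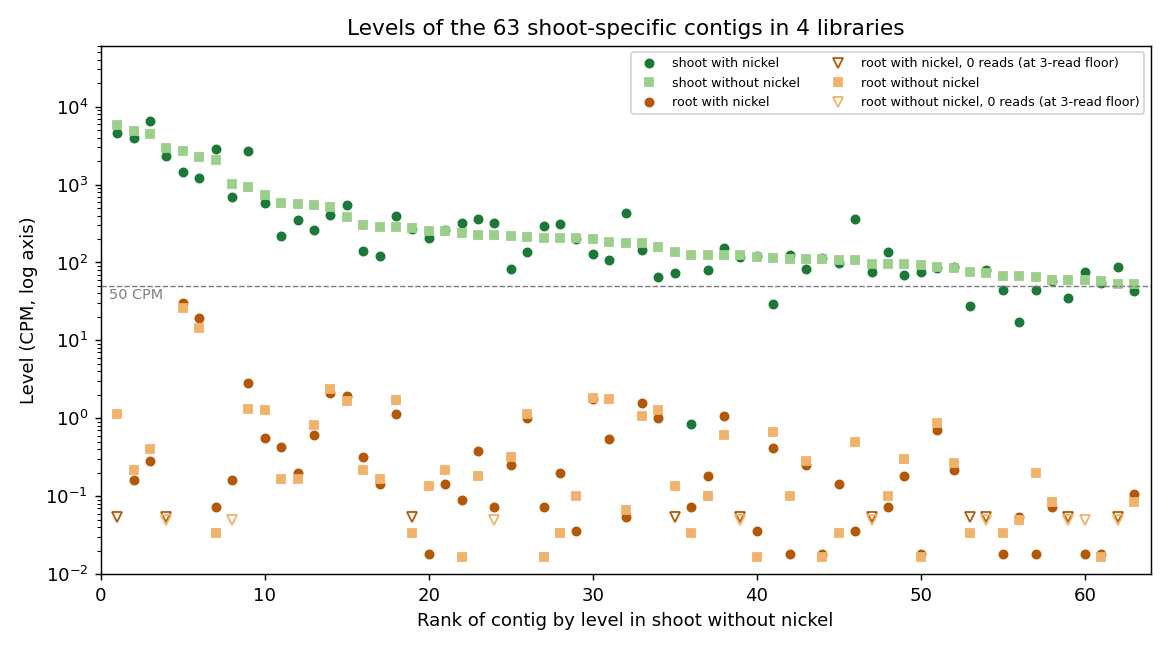
Level in CPM (log axis) of each of the 63 members in the 4 libraries, with members ranked by their level in shoot without nickel. Filled points are measured levels and open triangles are libraries with no read, drawn at the floor of 3 reads. In the shoot libraries 62 members lie above 10 CPM with nickel and all 63 above 50 CPM without nickel, whereas in root only ranks 5 and 6 stand above 10 CPM.

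The member with the highest level in shoot without nickel was Lhav_v2_contig_339. It had 448399 reads (4570 CPM) in shoot with nickel and 486196 reads (5725 CPM) in shoot without nickel. In root it had no read with nickel and 69 reads (1.15 CPM) without nickel. Both shoot levels were among the highest of the set, and the root libraries differed in whether the contig was seen at all. With root with nickel set at the floor of 3 reads, its level in shoot was 84797-fold that in root, and the 95% exact lower limit of the ratio was 68962. Without nickel the ratio was 4962 (95% exact interval 3921 to 6378).

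The member ranked second, Lhav_v2_contig_601, had 383070 reads (3905 CPM) in shoot with nickel and 407978 reads (4804 CPM) in shoot without nickel. It had 9 reads (0.162 CPM) in root with nickel and 13 reads (0.217 CPM) in root without nickel. Its shoot-over-root ratio was 24148 with nickel (95% exact interval 12720.5 to 52809) and 22101 without nickel (12924 to 41508), so the intervals overlapped.

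Lhav_v2_contig_72 was the most abundant member in shoot with nickel. It had 638258 reads (6506 CPM) there and 373239 reads (4395 CPM) in shoot without nickel, which ranked it number 3. Root held 16 reads (0.287 CPM) with nickel and 24 reads (0.401 CPM) without nickel. The log2 ratio of shoot with nickel over shoot without nickel was 0.57 (95% exact interval 0.56 to 0.57), opposite in direction to those of Lhav_v2_contig_339 (-0.33) and Lhav_v2_contig_601 (-0.30).

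The limits of the set cut through a continuous range. Just inside the 100-fold limit, Lhav_v2_contig_7211 had 88.4 CPM in shoot and 0.870 CPM in root without nickel, a ratio of 102. Lhav_v2_contig_12579 had 182 CPM in shoot and 1.76 CPM in root, a ratio of 104. Just outside it, Lhav_v2_contig_2095 stood at 97.1-fold with 82.8 CPM in shoot, and Lhav_v2_contig_8015 at 97.0-fold with 309.9 CPM in shoot. At the limit of level, the last members inside were Lhav_v2_contig_1727 and Lhav_v2_contig_3058 with 53.1 and 53.3 CPM in shoot without nickel, and the first contigs outside were Lhav_v2_contig_8134 and Lhav_v2_contig_5880 with 49.5 and 47.3 CPM. The counting intervals of the 2 ratios just inside, 77.4 to 136 and 85.7 to 127, and of the 2 just outside, 73.8 to 131 and 84.2 to 113, all held the limit of 100.

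In the nickel libraries, which had no part in the choice, most of the set again stood 100-fold above root. The rule applied to shoot with nickel and root with nickel was met by 50 of the 63 members (79.4%). Of the 60628 contigs tested, 81 met it (0.134%), and of the 3644 contigs at 50 CPM or more in shoot with nickel, 2.22% did. The 50 shared contigs made up 61.7% of the 81 contigs chosen from the nickel libraries. Without a limit on level, 56 members were at least 100-fold higher in shoot with nickel, compared with 4.93% of the 60628 contigs.

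The shoot-over-root ratio with nickel ran from 11.6 to 84797 with a median of 1028, and without nickel from 102 to 61191 with a median of 1239. With nickel 7 members were between 10 and 100-fold, 24 between 100 and 1000-fold, 25 between 1000 and 10000-fold and 7 above that. The counts without nickel were 25, 31 and 7 in the upper 3 ranges. These ratios include values set at the 3-read floor for the members with no root read. Of the 50 members with a read in both root libraries, 30 had a lower ratio with nickel than without and 20 a higher one, with a median log2 change of -0.40. The other 13 had no read in at least 1 root library and were left out of that count. Some decline is built into the comparison, since the members were chosen for a high ratio without nickel.

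**Figure D2:**
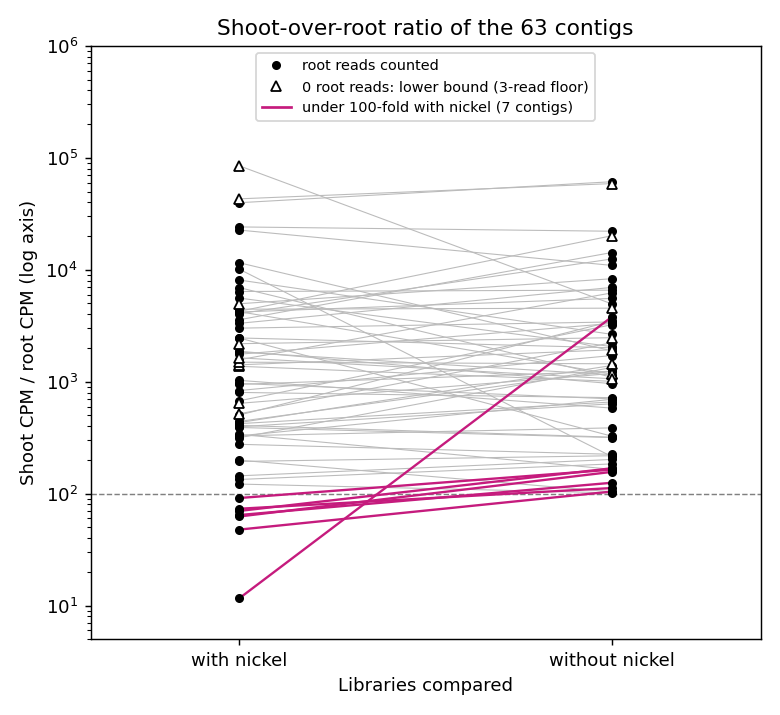
Shoot CPM over root CPM (log axis) of the 63 members, in the libraries with nickel on the left and without nickel on the right, with a line for each contig. Triangles are lower bounds from libraries with no root read, the dashed line is 100-fold, and coloured lines mark the 7 members under 100-fold with nickel, of which 6 lie between 47.7 and 91.4 and 1 at 11.6.

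The 13 members that did not meet the rule with nickel fell into 2 kinds. In 6 of them the ratio stayed above 100 and the level was under 50 CPM in shoot with nickel, at 17.0 to 44.2 CPM, against 53.1 to 74.5 CPM in shoot without nickel. All 6 came from the class of 50 to 100 CPM in shoot without nickel, where 11 of 17 members met the rule with nickel. Their levels were 1.24-fold to 3.95-fold lower in shoot with nickel. The other 7 were under 100-fold with nickel, and 5 of these had an interval wholly under 100.

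Of those 7, 6 had ratios of 47.7 to 91.4 with nickel, against 104 to 168 without nickel. All 6 were lower in shoot with nickel than in shoot without nickel, with log2 ratios from -1.96 to -0.29. In root 3 of them were higher with nickel and 3 lower, with log2 ratios from -0.66 to 0.54. The counting intervals of the 3 higher ones lay above no change, and those of the 3 lower ones all held it. The member of this kind with the lowest ratio was Lhav_v2_contig_816, with 142843 reads (1456 CPM) in shoot with nickel and 228678 reads (2693 CPM) in shoot without nickel. It had 1698 reads (30.5 CPM) in root with nickel and 1544 reads (25.8 CPM) in root without nickel, the highest root levels of any member. Its ratio was 47.7 with nickel (95% exact interval 45.5 to 50.1) and 104 without nickel (99.2 to 109.7).

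The remaining member under 100-fold, Lhav_v2_contig_44148, stood apart from all others. It had 82 reads (0.836 CPM) in shoot with nickel and 10739 reads (126 CPM) in shoot without nickel. Root held 4 reads (0.0719 CPM) with nickel and 2 reads (0.0334 CPM) without nickel. The level in shoot with nickel was 151-fold lower than in shoot without nickel (95% exact interval 122 to 190), and the shoot-over-root ratio was 11.6 with nickel (4.37 to 43.7), against 3781 without nickel (1047 to 31228). In the order of levels it was 36th in shoot without nickel and 63rd, the last, in shoot with nickel. The only shoot library in which it was low was the re-analysed one, and the part of library origin in this difference was not tested.

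In the other direction, 31 contigs met the rule with nickel without being members. Of these, 13 were at 50 CPM or more in shoot without nickel and fell short of 100-fold there, with ratios of 102 to 448 with nickel and 6.66 to 97.0 without nickel. Another 10 were past 100-fold without nickel but under 50 CPM, with shoot levels of 53.6 to 90.6 CPM with nickel and 2.73 to 49.5 CPM without nickel. The other 8 missed both limits without nickel.

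The opposite organ pattern gave a set of like size. Of 67 contigs at 50 CPM or more in root without nickel and at most 1/100 of that in shoot without nickel, 34 (50.7%) met the same rule with nickel, whereas 50 of the 63 shoot-specific members (79.4%) met theirs. This root-specific set lay nearer the limit of level, with median root levels of 71.4 CPM with nickel and 97.0 CPM without nickel. The members' shoot medians were 134 and 177 CPM. Without the limit on level, 23 of the 67 were under 100-fold with nickel, against 7 of the 63 members. The root-specific set had a median root-over-shoot ratio of 257 with nickel and 475 without nickel, and 5 of its contigs were under 10-fold with nickel, against none of the members. The comparison rests on the same 4 libraries in both sets, and the difference between the sets was not tested.

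Root reads on the members were close to the limit of detection for most of them. No read was counted for 10 members in root with nickel and for 9 in root without nickel, and 1 to 3 reads for 13 with nickel and 14 without nickel. More than 3 reads were counted for 40 members in each root library, 32 of which were the same contigs. A root level under 1 CPM was found for 52 members with nickel and 50 without nickel, 49 of them in both. The root level was used in the choice only for the library without nickel, and the counts in the classes of root reads differed between the libraries by at most 3 members.

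**Figure D3:**
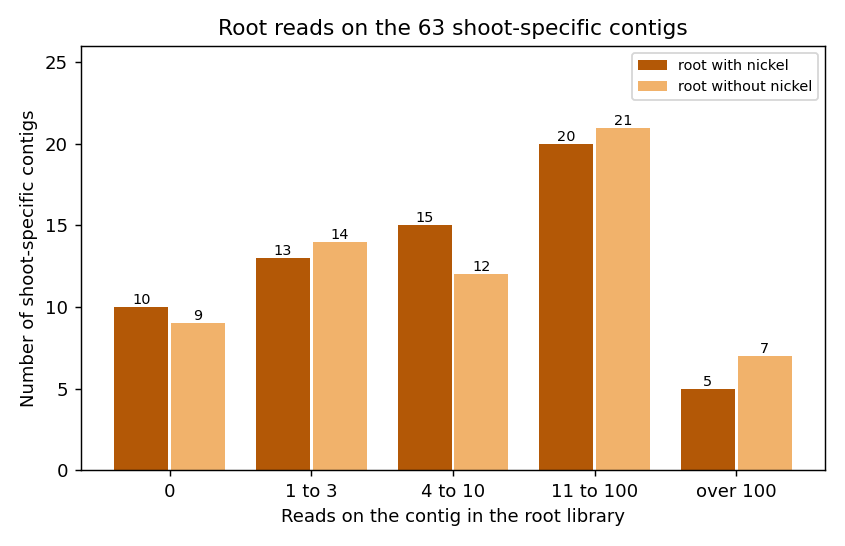
Number of the 63 members by the reads counted on them in the root library, with nickel (left bar of each pair) and without nickel (right bar). Libraries with no read on a member number 10 with nickel and 9 without nickel, and more than 100 reads were counted on 5 members with nickel and 7 without nickel.

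The root reads came mostly from 2 members. Lhav_v2_contig_816 and the member ranked sixth in shoot without nickel took 69.4% of the member reads in root with nickel and 62.1% in root without nickel. Without them the other 61 members summed to 1220 reads (21.9 CPM) in root with nickel and 1463 reads (24.5 CPM) in root without nickel. No single one of the 61 exceeded 2.82 CPM with nickel or 2.36 CPM without nickel. Spearman's rho between the root levels with and without nickel was 0.79 over the 63 members, whereas rho between shoot and root level with nickel was 0.34. High shoot levels thus went with both high and very low root levels. Both rho values include root counts of 3 reads or fewer, which cannot be ranked, and only 32 members had more than 3 reads in both root libraries.

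At the other end, 6 members had no read in either root library. Their shoot levels ran from 34.5 to 2320 CPM with nickel and from 53.3 to 2953 CPM without nickel. The most abundant of them, ranked number 4 in shoot without nickel, was 43043-fold higher in shoot than in root with nickel, root being set at the 3-read floor (95% exact lower limit 35005). Without nickel it was 58875-fold higher against the same floor (95% exact lower limit 47880). In all 65936 contigs, 5 had at least 50 CPM in both shoot libraries and no read in either root library. All 9 contigs at 50 CPM or more in shoot without nickel that had no read in root without nickel are members by construction.

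Nickel ratios in root could be given with any precision for few members. For the 32 members with more than 3 reads in both root libraries, a filter that leaves out contigs lost from either library, the log2 ratio of root with nickel over root without nickel had a median of -0.17 and ran from -1.66 to 1.24, with 28 within 2-fold. The median over all 60628 contigs was 0.079. By a size rule of at least 4-fold with a counting interval beyond 1.5-fold, 1 member was higher in root with nickel, beside 2.36% of all contigs, and 4 were lower, beside 0.643%. Since low levels in root without nickel were part of the choice, nothing is read from these counts.

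All 5 rested on few reads in at least 1 library. Lhav_v2_contig_339, given above, had no read in root with nickel against 69 without nickel, 21.4-fold lower with the zero set at the floor. Lhav_v2_contig_1263 had 2 reads in root with nickel and 30 in root without nickel, 14.0-fold lower (95% exact interval 3.54 to 121). The other 2 lower members, ranked 35th and 57th, had 0 and 1 reads in root with nickel against 8 and 12 in root without nickel. The higher one, ranked 8th, had 9 reads in root with nickel and none in root without nickel.

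In shoot, the members' levels with nickel lay mostly within 2-fold of those without nickel. The log2 ratio of shoot with nickel over shoot without nickel (CPM with a prior count of 2 reads) had a median of -0.30, with quartiles of -0.67 and 0.25. It was below 0 for 41 of the 63 members (65.1%), compared with 50.5% of the 3318 other contigs at 50 CPM or more in shoot without nickel. These values move with the scaling of the libraries. By TMM the members' median was -0.56, with 74.6% of members and 78.2% of the other abundant contigs below 0, and by DESeq2 size factors it was -0.68, with 77.8% and 86.8% below 0. The order of the shares thus turned with the scaling. By library totals the median of those 3318 contigs was -0.0050, and that of all 60628 contigs was 0.29. Relative to all contigs, the members' median was -0.59, and relative to the other abundant contigs it was -0.29. The latter gap was the same by TMM and by DESeq2 size factors. That had to be so, since scaling shifts the log2 ratios of abundant contigs nearly alike, and it is no check of the gap. By library totals the counting interval excluded a ratio of 1 for 62 of the 63 members, 41 lower and 21 higher, which reflects their depth and not a replicate spread. Some excess of lower ratios is built in, since members were chosen for a high level in shoot without nickel relative to root. The other abundant contigs share only the limit on level.

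**Figure D4:**
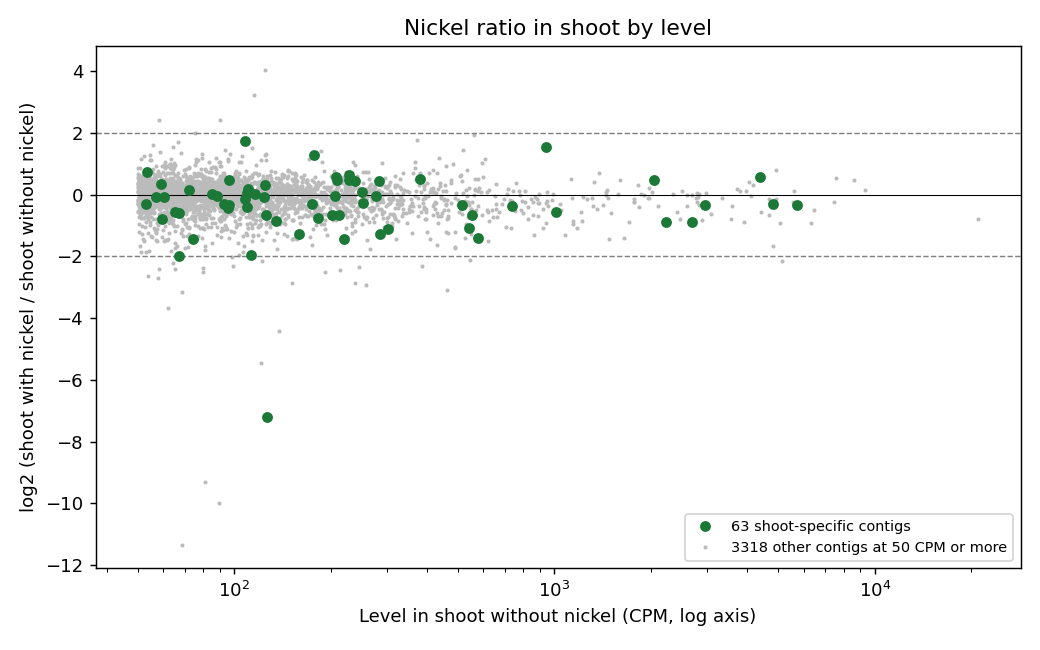
Log2 ratio of shoot with nickel over shoot without nickel (scaled by library totals) against the level in shoot without nickel (CPM, log axis) for the 63 members and the 3318 other contigs at 50 CPM or more. Dashed lines are 4-fold, and 1 member lies beyond them, at -7.20, while 41 of the 63 lie below 0.

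The gap to other abundant contigs varied with the level. Among contigs of 50 to 100 CPM in shoot without nickel, the median log2 ratio was -0.30 for 17 members and 0.033 for 1904 others. In the class from 100 to 200 CPM it was -0.22 for 16 members and -0.041 for 835 others. The class from 200 to 500 CPM ran the opposite way, with 0.019 for 16 members and -0.14 for 396 others. From 500 to 1000 CPM the medians were -0.52 for 6 members and -0.25 for 100 others, and from 1000 CPM upward -0.34 for 8 members and -0.13 for 83 others. Members were thus lower in 4 of the 5 classes, and made up 0.885% of the lowest class and 8.79% of the highest. The choice of members by their ratio to root in the libraries without nickel bears on these gaps too.

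Few members differed strongly in shoot. By the 4-fold size rule, 0 members were higher with nickel, beside 6.49% of the 60628 contigs and 0.121% of the 3318 other abundant contigs. Only Lhav_v2_contig_44148 was lower, beside 1.83% and 0.814%. In both directions together, 8.32% of the 60628 contigs passed, and 1 of the 63 members did. These were 3932 contigs higher and 1111 lower, and by DESeq2 size factors the split was 2647 and 1557. With libraries scaled by TMM or by DESeq2 size factors, 3 members were lower, Lhav_v2_contig_8848 among them, and none higher. With the size rule set at 2-fold, 10 members (15.9%) were lower and 3 (4.76%) higher, compared with 5.03% and 1.54% of the other abundant contigs and with 4.36% and 14.3% of all contigs. The difference between these shares rests on a single pair of libraries and was not tested. Part of the excess of lower members is built in, since shoot without nickel was used in the choice.

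Next to Lhav_v2_contig_44148, the member with the lowest ratio relative to counting error was Lhav_v2_contig_8848. It had 1671 reads (17.0 CPM) in shoot with nickel and 5706 reads (67.2 CPM) in shoot without nickel, 3.95-fold lower (95% exact interval 3.74 to 4.17). Each root library held 3 reads of it, and its shoot-over-root ratio was 316 with nickel (108 to 1534) and 1339 without nickel (458 to 6497). In all, 9 members were between 2 and 4-fold lower in shoot with nickel, and 5 of these still met the organ rule there.

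Higher ratios were smaller in size. Lhav_v2_contig_1263 had 35611 reads (363 CPM) in shoot with nickel and 9148 reads (108 CPM) in shoot without nickel. The log2 ratio was 1.75 (95% exact interval 1.72 to 1.79). With 2 root reads with nickel and 30 without, its shoot-over-root ratio was 10102 with nickel (2796 to 83416) and 215 without nickel (150 to 318). Lhav_v2_contig_69 had 267047 reads (2722 CPM) in shoot with nickel and 79801 reads (939.7 CPM) in shoot without nickel, a log2 ratio of 1.53 (1.52 to 1.55). It was also higher in root, with 157 reads (2.82 CPM) with nickel and 80 reads (1.34 CPM) without nickel, a log2 ratio of 1.06 (0.68 to 1.48). Its shoot-over-root ratio of 965 with nickel (825 to 1136) and 702 without nickel (564 to 886) therefore moved less than either level.

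Contigs 10 to 100-fold higher in shoot, at the same minimum level without nickel, were the set nearest in organ pattern. They numbered 243 and had a median log2 ratio of -0.21 in shoot, against -0.30 for the 63 members. Their median shoot-over-root ratio was 13.9 with nickel and 16.8 without nickel, and 13 of them were past 100-fold with nickel while 74 were under 10-fold.

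The identifiers themselves carried some order. Contig numbers run from 1 to 65936, and over all contigs the number correlated with the mean CPM of the 4 libraries at Spearman's rho of -0.79, a description across contigs. Members had numbers from 64 to 44148 with a median of 2711, compared with 3932.5 for the other contigs at 50 CPM or more. Lhav_v2_contig_44148, the member that was low in shoot with nickel, had the highest number, and the next was 28350. The members Lhav_v2_contig_1261, Lhav_v2_contig_1262 and Lhav_v2_contig_1263 have consecutive numbers, a feature singled out after their values were seen. Their levels in shoot with nickel were 357, 291 and 363 CPM, against 228, 209 and 108 CPM in shoot without nickel. All 3 were higher in shoot with nickel. In root their log2 ratios were 0.94, 1.18 and -3.07, from 30 reads or fewer per library. Lhav_v2_contig_601 and the member ranked 29th, whose numbers differ by 2, had log2 ratios of -0.30 and -0.043 in shoot. The labels do not say what the numbering stands for.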

How the data were processed

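Per the labels' protocols, total RNA was extracted with TRIzol LS, treated with DNase and made into Illumina TruSeq Stranded mRNA libraries. The deposited values are whole-number read counts per contig for 1 library each, per the file headers, without normalization. Aligner, counting program, assembly and the treatment of near-identical contigs are not stated in the labels or headers, so reads of close copies may have been divided among them.

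CPM was the count over the column total times 1000000. Members had at least 50 CPM in shoot without nickel and a root level of at most 1/100 of it. Nickel log2 ratios used CPM with a prior count of 2, and a contig passed the size rule at 4-fold with an exact conditional binomial (Clopper-Pearson) 95% interval beyond 1.5-fold. The background was the 60628 contigs reaching 10 reads in 1 or more libraries, and all 63 members passed that filter. A zero count in the denominator of an organ ratio was set at 3 reads per library. The rule, summed levels, medians of levels and rank correlations of levels used the zero itself. TMM (edgeR 4.0.16), DESeq2 1.42.0 size factors, other limits, prior counts and filters, halved counts and thinning were alternatives (R 4.3.3, Python 3.11.15, scipy 1.17.1). The calculations were tested on simulated data.

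The members and rules were chosen with earlier results of these data known. Contigs named were the 2 highest in each shoot library, the 2 higher and 2 lower with nickel in shoot relative to counting error, the 2 with the lowest organ ratio with nickel, and the 2 on either side of each limit. Others are given by rank in shoot without nickel. Gene lists could not be formed, since the files pair no names with the contigs.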

Additional observations from a re-analysis of the deposited data

Results flagged for a closer look

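Among the members named, 2 had nickel differences of opposite direction in shoot and root, with both counting intervals away from no change by library totals. Some members not named here showed the same, among them the one ranked 11th, with log2 ratios of -1.41 in shoot and 1.24 in root. With 1 library per group, neither difference between the organs was tested, and in shoot nickel and library origin coincide. Lhav_v2_contig_1263 had a log2 ratio of nickel over no nickel of 1.75 in shoot and -3.07 in root, a difference of 4.83 (shoot minus root) that rests on 2 root reads with nickel and 30 without nickel. Lhav_v2_contig_816 had a log2 ratio of -0.89 in shoot and 0.24 in root, a difference of -1.13.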

How the results depend on the processing

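No paired analysis was possible because each group has 1 library. Of 36 recalculations of 6 results, 24 left the count within 1.5 times the reported one or the median within its order-statistic limits (-0.41 to -0.052). Those limits describe the spread over the 63 contigs in 1 pair of libraries. Contigs are not replicates, so the limits served only as a yardstick here and say nothing of a nickel effect. A change of direction could be scored only for the median log2 ratio in shoot, and 0 of its 6 recalculations had one. The 63 members became 99 with a 50-fold limit and 123 with a 20 CPM limit, and ranged from 46 to 80 under the other 6 settings, with all 63 kept under TMM and DESeq2 size factors (76 and 80 contigs). Members past the rule with nickel, reported as 50, numbered 77 and 87 under the 50-fold and 20 CPM limits, and the share was 70.7% to 83.0% under all 8 settings. The 1 member past 4-fold in shoot became 3 with TMM and 3 with DESeq2 size factors, 13 at 2-fold (3 higher, 10 lower) and 0 without Lhav_v2_contig_44148, an omission chosen after seeing the data. Over all contigs, 3932 were higher and 1111 lower by totals, 3160 and 1415 by TMM, and 2647 and 1557 by DESeq2 size factors. A 2-fold limit gave 8641 and 2644, an 8-fold limit 817 and 523, a prior count of 5 gave 1709 and 805, and at least 50 reads gave 1577 and 844. The members' median log2 ratio in shoot was -0.56 by TMM and -0.68 by DESeq2 size factors, where the median of all contigs was 0.050 and -0.033. The share of reads on members in shoot with nickel was 2.73% without 23 contigs, the 10 most abundant of each library, of which 2 were members. More than 10 reads in root with nickel were counted on 25 members, against 40 with more than 3. Single libraries and low root counts set the limits: root levels of 3 reads or fewer cannot be ranked.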
